A study of Arabidopsis thaliana with 6 samples.

Results

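Transposable elements are DNA segments that can copy or move themselves within a genome, and plants keep most of them silent through DNA methylation, repressive histone marks and small RNAs. Where an element lies inside or beside an active gene, its sequence can nevertheless appear in polyadenylated RNA, because transcription of the gene runs through it or because transcription starts within it. Readthrough past the 3′ end of a gene is one way to such gene-element transcripts, and NERD, a plant-specific protein with a GW/AGO-hook and a PHD finger, was studied for its part in RNA 3′ end formation and in silencing. The elements described here were selected on their expression: of 31100 annotated elements of *Arabidopsis thaliana*, 674 had at least 1 FPKM (fragments normalised to feature length and to mapped fragments) in at least 2 of the 6 libraries. The same threshold was passed by 19575 genes, so that the elements made up 674 of the 20249 features tested.

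RNA was taken from 14-d-old seedlings, all in the Col-0 ecotype, with 2 replicates of each genotype. WT plants carried no mutation, nerd-1 plants carried a T-DNA insertion in *NERD* (AT2G16485), and nerd-1+T plants were the same mutant with a construct expressing flag-tagged NERD. The complemented line therefore shares the nerd-1 allele and is represented by a single line, and nothing states whether the 2 replicates came from separately grown plants, so that the spread between them may be partly technical. Throughout, values are given for replicate 1 and then replicate 2 of WT, nerd-1 and nerd-1+T.

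*NERD* had 14.1 and 13.9 FPKM in WT against 7.59 and 7.45 in nerd-1, with 63.7 and 63.5 in nerd-1+T, in the order that the labels imply. The summed FPKM of 3 leaf genes (*RBCS1A*, *RCA* and *LHCB2.1*) was 15354 and 16051 in WT, 15991 and 16454 in nerd-1, then 14235 and 15122 in nerd-1+T, that of 3 root hair genes (*COBL9*, *EXPA7* and *RHD6*) lay between 5.32 and 9.86, and the flower organ genes *AG* and *AP3* did not exceed 0.132 FPKM in any library. Single markers differed: *LHCB2.1*, a light-harvesting protein gene, had 218 and 263 FPKM in WT against 931 and 912 in nerd-1, with 723 and 608 in nerd-1+T, and rose by 1.94 and 1.47 on the log2(FPKM + 1) scale (adjusted p = 0.00047 and 0.00072, limma). In nerd-1 against WT, *RCA* rose by 0.43 (adjusted p = 0.019, limma) and *EXPA7* by 0.53 (adjusted p = 0.046, limma), and the other 3 tested markers did not pass the test. The part of such differences in the results below was not tested. The number of reads behind a single FPKM value is unknown, and precision was judged from the spread between replicates. That spread was wider for elements than for genes: over the 674 elements, log2(FPKM + 1) had a median SD of 0.18 for WT, 0.16 for nerd-1 and 0.36 for nerd-1+T, while over the 19575 genes these were 0.04, 0.04 and 0.09. The nerd-1+T replicates also differed in direction. Among the 340 elements of at least 1 FPKM in all 6 libraries, 251 (73.8%) were higher in replicate 2 than in replicate 1 of nerd-1+T, with a median difference of 0.42 on the log2 scale. The corresponding share of genes was 52.4%, and in WT and nerd-1 it was 53.8% and 48.2% of these elements.

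Expression of elements was rare and uneven. Between 1546 and 1671 of the 31100 elements (4.97% to 5.37%) had any value above 0 in a given library. Of the 674 expressed elements, 340 reached 1 FPKM in all 6 libraries, 57 in 5, 66 in 4, 89 in 3 and 122 in only 2. Counted by genotype, 438 elements reached 1 FPKM in at least 1 library of all 3 genotypes, 182 in 2 genotypes and 54 in a single genotype, which was WT for 27, nerd-1 for 18 and nerd-1+T for 9. The median of the element means was 5.55 FPKM, below the 13.3 FPKM of the tested genes, while 62 elements averaged at least 100 FPKM and 8 at least 1000 FPKM. At the edge of the threshold, the second highest library of AT4TE43220 had 1.0004 FPKM and that of AT3TE42955, which was left out, had 0.995 FPKM.

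On chromosomes 1, 3 and 5, elements were expressed mainly towards the chromosome ends. When all annotated elements of a chromosome were put in order of their number, which follows position, and divided into 10 equal parts, 5.91% of the elements in the first part of chromosome 1 and 5.07% in the last part were expressed, but 0 of 711 in the fifth part. Chromosome 3 went from 7.76% in the first part to 0 of 644 in the sixth part, and chromosome 5 had 6.30% in the first part and 6.31% in the last. Chromosome 2 had no such rise at its start, with 1.01% in the first part against 3.20% in the last. Chromosome 4 had 2.02% in part 1, 3.43% in part 2 and 0.403% in part 3. Parts 4 to 7 had 0.404%, 1.815%, 0.404% and 1.01%, and parts 8 to 10 had 4.24%, 4.23% and 4.04%. Its lowest values thus lay in inner parts, with part 5 raised between them. The middle parts of chromosomes 1, 3 and 5 are where the pericentromeric regions lie, which are rich in elements and poor in genes. Per chromosome, between 1.499% (chromosome 2) and 2.51% (chromosome 5) of the annotated elements were expressed.

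**Figure D1:**
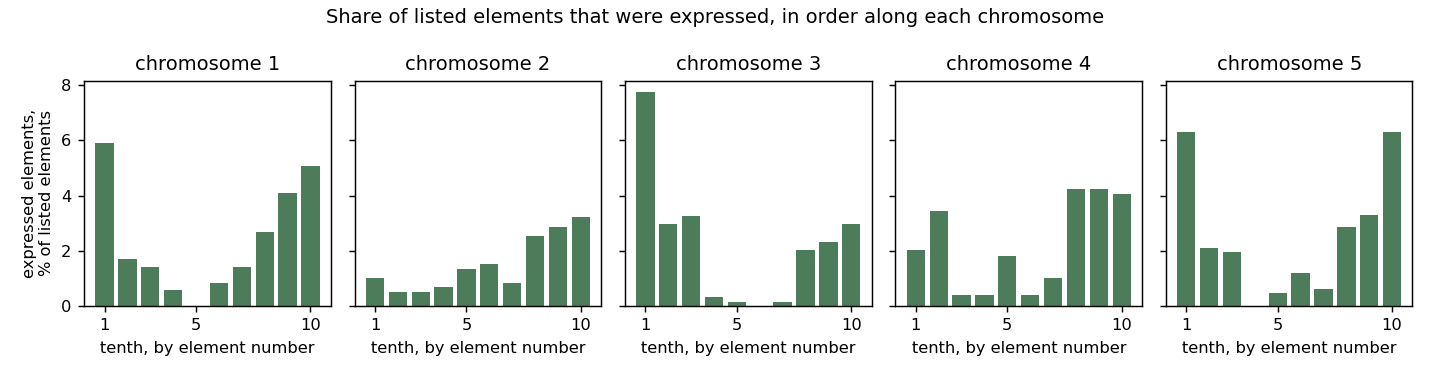
Each bar gives the percentage of annotated elements that had at least 1 FPKM in at least 2 libraries, for 10 equal groups of elements ordered by their number along chromosomes 1 to 5. Bars are high at the ends and at or near 0 in the middle of chromosomes 1, 3 and 5.

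The elements made up a smaller share of the summed FPKM in nerd-1 than in WT. As FPKM is divided by feature length, this is not their share of the reads. Their FPKM summed to 58470 and 55117 in WT against 33193 and 32420 in nerd-1, with 45782 and 66661 in nerd-1+T, which was 6.77% and 6.38%, 3.49% and 3.36%, and 5.34% and 7.87% of all FPKM. Both nerd-1 libraries lay below all other libraries, whereas the nerd-1+T libraries lay on either side of WT; with 2 libraries against 2, an exact two-sided permutation test cannot give a p below 0.333. In each library, its own 4 highest elements held between 33.4% and 56.0% of the sum. Without the 4 elements with the highest means over all libraries, the sums were 37127 and 34472 in WT against 21582 and 21578 in nerd-1, with 26209 and 31233 in nerd-1+T, so that nerd-1 remained lowest and both nerd-1+T libraries fell between nerd-1 and WT. In whole seedlings, fewer cells that express an element and less RNA per cell cannot be told apart.

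On average over the 6 libraries, the largest single contributions to these sums came from the 10 elements with the highest means. AT2TE32080, the highest, had 8130 and 8158 FPKM in WT against 1202 and 1148 in nerd-1, with 5856 and 21666 in nerd-1+T. It fell in nerd-1 by 2.79 on the log2(FPKM + 1) scale against WT (SE 0.58, adjusted p = 0.011, limma), and its nerd-1+T replicates lay on either side of the WT values. AT2TE18115 followed with 5983 and 5483 FPKM in WT against 5401 and 5100 in nerd-1, with 8606 and 8855 in nerd-1+T, where it was higher than in WT by 0.61 (SE 0.10, adjusted p = 0.0057, limma). Among the others, AT1TE80650, AT3TE34290, AT2TE18800, AT4TE59630 and AT1TE58840 were lower in both mutant lines than in WT with no overlap of libraries. AT1TE80650 had 1980 and 2749 FPKM in WT against 644 and 411 in nerd-1, with 918 and 530 in nerd-1+T. AT3TE34290 had 1282 and 1252 FPKM in WT against 366 and 329 in nerd-1, with 350 and 766 in nerd-1+T. In nerd-1, AT1TE80650 fell by 2.18 (adjusted p = 0.0052, limma) and AT3TE34290 by 1.87 (adjusted p = 0.0084, limma). AT4TE34015 went the other way, with 673 and 562 FPKM in WT against 859 and 1004 in nerd-1, with 1903 and 4030 in nerd-1+T. The difference between nerd-1+T and WT was 2.17 (SE 0.35, adjusted p = 0.0053, limma), while that between nerd-1 and WT did not pass the test (0.59, adjusted p = 0.20, limma). AT4TE59630 and AT1TE58840 fell in nerd-1 by 0.71 each, AT1TE41795 by 1.36, and AT2TE18800 and AT1TE11810 did not pass the test in nerd-1 against WT.

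Some of the high values rest on a coarse scale. In AT1TE23620, AT1TE72230 and AT1TE87760, the values above 0 in a library were whole multiples of a common value, to within 0.1%. AT1TE23620 and AT1TE72230 had exactly the same 145 FPKM in WT replicate 1. In WT replicate 2, AT1TE72230 had 149 FPKM and AT1TE23620 had 298, which is 2 such steps, and in nerd-1 replicate 2 the 3 elements had 365, 608 and 365 FPKM, which are 3, 5 and 3 steps of 122 FPKM. AT1TE11810, among the 10 highest elements, had 2257 and 1031 FPKM in WT against 1238 and 1051 in nerd-1, with 2109 and 1343 in nerd-1+T. Once the difference between the common values of the WT libraries was allowed for, its WT values stood as 9 to 4. Steps of this size arise where a short feature is covered by few fragments, and the number of fragments in these elements was not determined.

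Elements with 0 in one replicate and at least 1 FPKM in the other were set apart, since a value of exactly 0 next to a high value can be a failed estimate. They numbered 70 for WT, 60 for nerd-1 and 66 for nerd-1+T, which made 130 different elements (19.3% of 674), against 50 of 19575 genes (0.255%). The 0 fell in replicate 1 and in replicate 2 about equally often, 34 and 36 times for WT, 31 and 29 times for nerd-1 and 33 times each for nerd-1+T. The other replicate had a median of 4.49 FPKM for WT, 3.40 for nerd-1 and 5.41 for nerd-1+T, and reached at least 100 FPKM in 2, 2 and 4 elements. Of these elements, 69 were set apart in 1 genotype, 56 in 2 and 5 in all 3.

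The highest values among them show how far replicates could be from each other. AT1TE23620, described above, had 0 FPKM in nerd-1 replicate 1 and 365 FPKM in replicate 2. AT4TE42600 had 209 and 215 FPKM in WT against 114 and 57.9 in nerd-1, but 313 and 0 in nerd-1+T. AT1TE68360 had 0 and 152 FPKM in WT, 0 in both nerd-1 libraries and 45.1 and 44.0 in nerd-1+T. In AT3TE19725 only WT replicate 1 (92.6 FPKM) and nerd-1+T replicate 2 (162 FPKM) had a value above 0, and the same libraries alone had one in AT2TE71580 (56.5 and 101 FPKM). AT5TE14390 had 172 FPKM in nerd-1 replicate 2, 21.1 in nerd-1+T replicate 1 and 0 elsewhere. The values of AT3TE10670 were 0 and 85.1 FPKM in WT against 18.7 and 18.5 in nerd-1, with 0 and 50.5 in nerd-1+T. For AT5TE47610 they were 21.4 and 10.6 FPKM in WT against 48.6 and 80.2 in nerd-1, with 68.3 and 0 in nerd-1+T. In AT4TE10810 they were 107 and 0 FPKM in WT, 0 in both nerd-1 libraries and 193 and 143 in nerd-1+T, and in AT1TE87760 they were 0 in WT, 239 and 365 in nerd-1, then 0 and 130 in nerd-1+T. Set-apart elements were left out of the counts of every comparison that involves the genotype concerned.

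**Figure D2:**
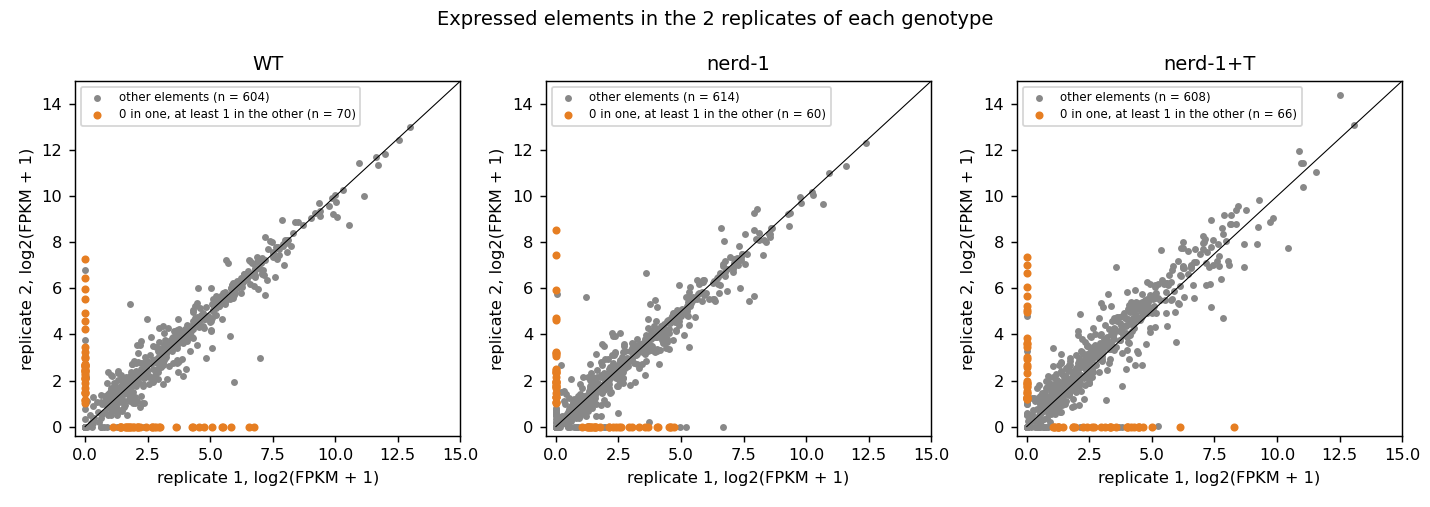
Each point is one of the 674 expressed elements, with log2(FPKM + 1) in replicate 1 on the horizontal axis and in replicate 2 on the vertical axis, for each genotype. Orange points on the axes are the 70, 60 and 66 elements with 0 in one replicate and at least 1 FPKM in the other, and the cloud is widest in nerd-1+T.

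The first comparison asked which elements differ when NERD is impaired. In nerd-1 against WT, 567 elements were not set apart, of which 243 (42.9%) were lower and 68 (11.99%) were higher in nerd-1 at an adjusted p under 0.05. Over all 20249 features, the shares called were 36.3% lower and 19.4% higher, where set-apart features are included. With set-apart elements included, 36.5% of the 674 elements were lower and 10.4% higher, so that the share of lower calls was then near that of all features. When each library was scaled to the same FPKM total, 285 of 567 elements (50.3%) were lower, against 50.9% of all features. The median difference of the 567 elements was -0.58 on the log2(FPKM + 1) scale, against -0.11 over all features. Because an element expressed in a single genotype had to differ in order to be listed, the same count was made over the 340 elements of at least 1 FPKM in all 6 libraries: 163 (47.9%) were lower and 31 (9.12%) were higher, with a median of -0.66. Of 18321 genes with the same coverage, 37.1% were lower and 19.7% higher, with a median of -0.10. Among these 340 elements, the median difference was -0.42 for the 117 with means from 1 to 10 FPKM, -0.84 for the 167 with means from 10 to 100 FPKM, and -0.71 for the 56 with higher means. When WT replicate 1, WT replicate 2, nerd-1 replicate 1 or nerd-1 replicate 2 was left out, the median of the 567 elements was -0.60, -0.60, -0.59 and -0.59. Over all features it was -0.11, -0.10, -0.105 and -0.11 in these fits. Fewer elements, and a smaller share of all features, passed the threshold in each of them.

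**Figure D3:**
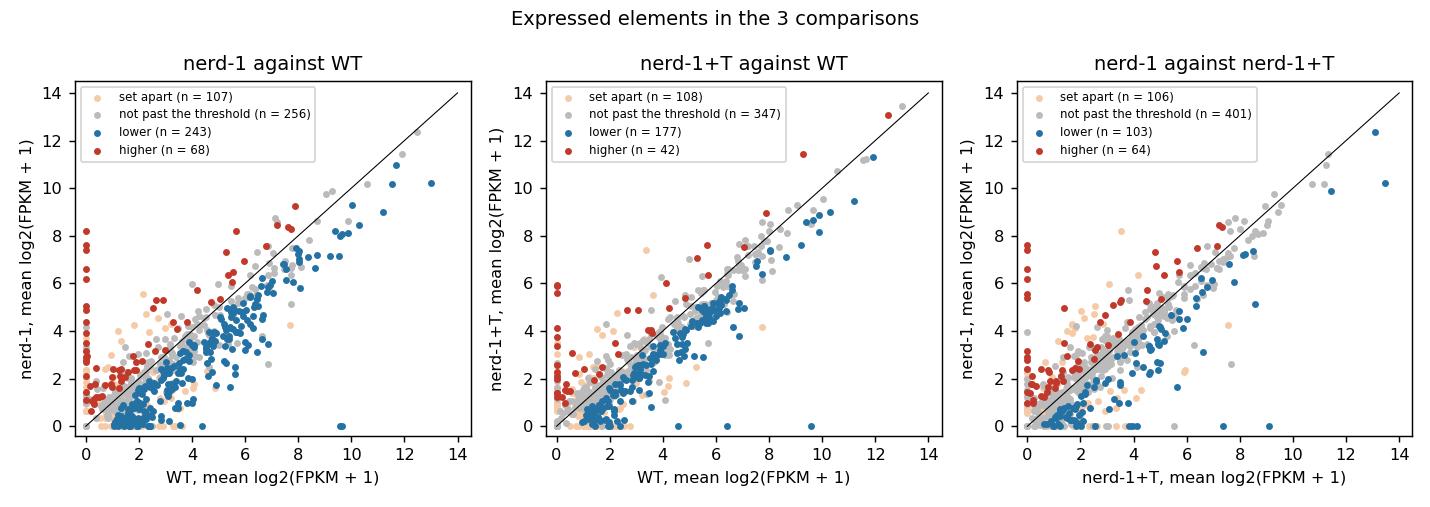
Each point is an expressed element, with the mean log2(FPKM + 1) of 2 libraries of each genotype on the axes and the line of equal values. Colours mark elements called lower (243, 177 and 103) or higher (68, 42 and 64), those not past the threshold and those set apart, in nerd-1 against WT, nerd-1+T against WT and nerd-1 against nerd-1+T.

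Among the 8 largest falls in nerd-1, some elements went to 0. AT4TE29090 had 1510 and 433 FPKM in WT and 0 in both nerd-1 libraries (adjusted p = 0.0016, limma), with 1378 and 217 FPKM in nerd-1+T. AT2TE59470 had 1062 and 546 FPKM in WT and was listed at 0 in all 4 libraries of the mutant lines. Its WT values stood as 2 to 1 in the same sense as those of AT1TE11810. It was 1 of 46 elements with only 2 values above 0 among those searched, so that such a ratio can arise from the search alone. AT5TE48720 had 19.2 and 20.6 FPKM in WT, 0 in both nerd-1 libraries and 12.3 and 16.8 in nerd-1+T (adjusted p = 0.00012 for nerd-1 against WT, limma). No fold is given for elements listed at 0, and no p for elements that reached 1 FPKM in a single genotype, whose direction the selection fixed.

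The other large falls kept a value in nerd-1. AT1TE89660 fell by 3.38 (SE 0.10, adjusted p = 0.00011, limma), from 111 and 117 FPKM in WT to 9.16 and 10.95 in nerd-1, with 27.4 and 30.8 in nerd-1+T. AT4TE10035 fell by 3.44 (SE 0.33, adjusted p = 0.0014, limma), from 49.6 and 47.1 FPKM to 3.62 and 3.48, with 15.4 and 33.6 in nerd-1+T. In both elements the 3 genotypes did not overlap, and nerd-1+T lay between nerd-1 and WT. Both were chosen for large falls in nerd-1, a choice that favours higher values in nerd-1+T than in nerd-1. AT2TE54200 (44.2 and 40.7 FPKM in WT, 8.91 and 0.00057 in nerd-1, then 33.5 and 68.9 in nerd-1+T), AT2TE28180 (144 and 52.0, 3.84 and 14.2, 75.2 and 125) and AT3TE08860 (4.56 and 24.1, 0.062 and 0.000017, 0.000061 and 2.07) fell by 3.78, 3.35 and 3.52, with replicates of nerd-1 or WT that differed several-fold. Counted among elements with a value above 0 in both genotypes, a list added after the values were seen, the next largest falls were AT1TE07970 (21.1 and 39.7 FPKM in WT, 2.29 and 2.41 in nerd-1), AT5TE18970 (50.2 and 46.0, 3.996 and 5.23) and AT3TE35790 (12.3 and 18.0, 1.45 and 0.611). They fell by 3.16, 3.14 and 3.002 (adjusted p = 0.0031, 0.00091 and 0.0019, limma). In nerd-1+T their values were 6.89 and 15.2 FPKM, 14.6 and 25.3 FPKM, and 7.53 and 12.9 FPKM. These lay above both nerd-1 libraries, an order that the choice of low values in nerd-1 favours.

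All 8 of the largest rises in nerd-1 were elements listed at 0 in both WT libraries, so that only values are given. AT1TE04620 had 96.7 and 394 FPKM in nerd-1, AT5TE00550 had 105 and 266, AT5TE69890 had 212 and 42.7, and AT5TE78690 had 91.2 and 54.9. These 4 elements were also at 0 in both nerd-1+T libraries, so that they were selected through nerd-1 alone. The other 4 had a value in nerd-1+T as well: AT1TE87760 (239 and 365 FPKM in nerd-1, against 0 and 130 in nerd-1+T), AT4TE10265 (31.4 and 33.0, 0 and 32.9), AT3TE39720 (28.5 and 28.7, 34.1 and 65.8) and AT2TE45270 (39.1 and 9.83, 12.2 and 12.7). Among the 567 elements not set apart in this comparison, 20 were at 0 in both WT libraries and above 0 in nerd-1, and 14 were at 0 in both nerd-1 libraries and above 0 in WT. For elements selected through a single genotype, the selection fixed the direction. No such count is given for genes, so that 20 against 14 shows no excess of rises. Set-apart elements with 0 in both libraries of the other genotype are not counted here.

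Rises of elements with a value above 0 in both genotypes, again a list added after the values were seen, were smaller. AT1TE93275 had 0.042 and 0 FPKM in WT against 7.61 and 5.78 in nerd-1, with 9.39 and 9.33 in nerd-1+T, and rose in nerd-1 by 2.904 (SE 0.12, adjusted p = 0.00018, limma). AT2TE78320 rose by 2.63 (SE 0.51, adjusted p = 0.0090, limma), from 8.56 and 3.13 FPKM in WT to 38.5 and 37.5 in nerd-1, with 20.0 and 8.58 in nerd-1+T. AT5TE31645 rose by 2.53 (SE 0.30, adjusted p = 0.0023, limma), from 54.7 and 45.8 FPKM to 339 and 255, with 260.5 and 145 in nerd-1+T. AT4TE01030 (6.89 and 6.07 FPKM in WT, 40.5 and 36.6 in nerd-1) rose by 2.40, AT5TE38735 (0.268 and 0.313, 4.88 and 4.01) by 2.07, and AT3TE06290 (39.0 and 36.2, 166 and 151) by 2.05. Both nerd-1 libraries of each of these elements lay above both WT libraries, which was a condition for entering this list and is no result. AT3TE18490, which reached 1 FPKM in nerd-1 alone, was at or near 0 in WT and had 4.56 and 2.37 FPKM in nerd-1.

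**Figure D4:**
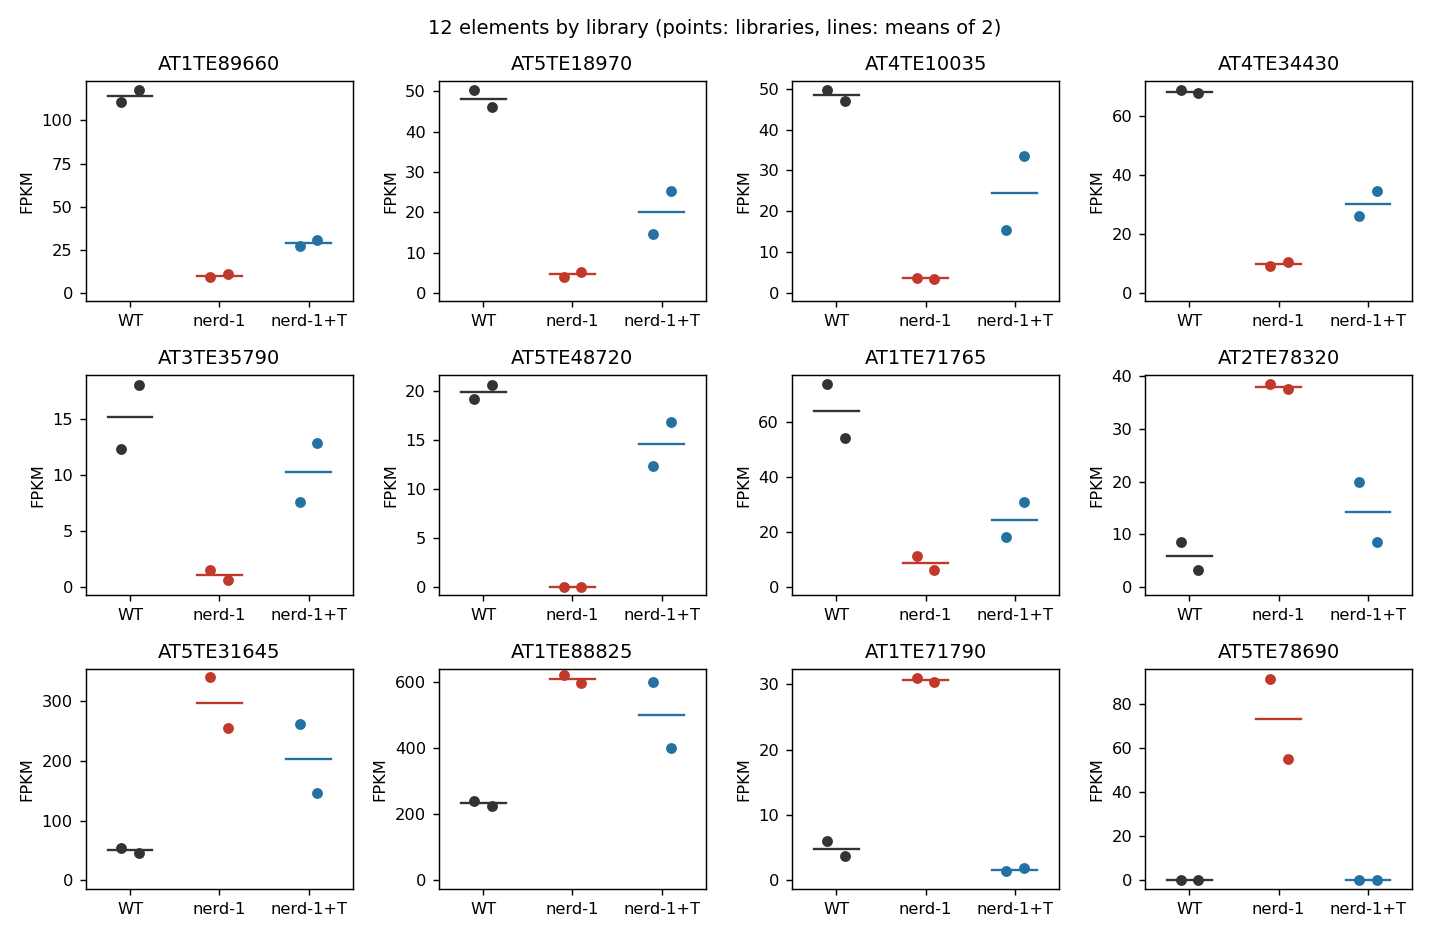
FPKM of 12 elements by library, with points for libraries and lines for the means of 2, on linear axes that start at 0. The 7 elements from AT1TE89660 to AT1TE71765 were lower in both nerd-1 libraries than in all WT libraries, and the 5 from AT2TE78320 to AT5TE78690 were higher.

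The complemented line was compared with WT to see which differences remained when NERD was expressed from the construct. Of 566 elements not set apart, 177 (31.3%) were lower and 42 (7.42%) were higher in nerd-1+T, against 39.8% lower and 13.2% higher over all features. The median was -0.42, against -0.17 over all features. Among the 340 elements of at least 1 FPKM in all libraries, 121 (35.6%) were lower and 20 (5.88%) higher, against 41.0% and 13.6% of genes with the same coverage. The number of lower elements was 91 without WT replicate 1 and 87 without WT replicate 2, or 16.1% and 15.4% against 21.7% and 20.5% of all features. The share of lower elements was near that of all features in other fits, with 254 (44.9%) against 45.1% without nerd-1+T replicate 2 and 119 (21.0%) against 20.7% when libraries were scaled to a median log2 ratio of 0.

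Large falls in nerd-1+T against WT included AT2TE59470, listed at 0 in both lines as above. AT1TE02275 had 47.9 and 149 FPKM in WT, 40.1 and 41.0 in nerd-1, and was listed at 0 in both nerd-1+T libraries (adjusted p = 0.00053, limma). AT2TE50820 had 31.4 and 16.7 FPKM in WT, 0 and 23.6 in nerd-1, and was listed at 0 in both nerd-1+T libraries. It would not have been selected without its WT values, so that no p is given. AT3TE43445 had 4.31 and 4.23 FPKM in WT but 0 in all 4 libraries of the mutant lines. AT1TE89775 fell by 3.08 (adjusted p = 0.011, limma), from 94.5 and 145 FPKM in WT to 6.37 and 25.3 in nerd-1+T. AT1TE13245 fell by 2.61 (adjusted p = 0.0018, limma), from 32.1 and 63.3 FPKM to 6.55 and 6.55, and had 23.2 and 25.5 in nerd-1. AT1TE37065 (109 and 89.6 FPKM in WT, 6.88 and 40.7 in nerd-1+T) fell by 2.46 and AT3TE08860 by 2.75. AT3TE69355 had 37.0 and 34.0 FPKM in WT against 5.30 and 6.24 in nerd-1, with 6.95 and 6.53 in nerd-1+T. It fell by 2.43 in nerd-1 and by 2.24 in nerd-1+T against WT (SE 0.09, adjusted p = 0.00014 and 8.7e-05, limma), and the mutant lines differed by -0.20 (adjusted p = 0.13, limma).

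Rises in nerd-1+T against WT were led by elements at 0 in both WT libraries, among them AT3TE02890 (77.2 and 48.0 FPKM in nerd-1+T), AT5TE14765 (58.5 and 58.0), AT3TE39720 and AT2TE45270. AT1TE79760 was above 0 only in nerd-1+T, with 11.3 and 23.6 FPKM. AT1TE05870 had 4.55 and 5.24 FPKM in nerd-1+T, but at most 0.00083 FPKM in the other 4 libraries. AT2TE35695 had 6.88 and 7.84 FPKM in nerd-1+T, while WT had 0.244 and 0.842 and nerd-1 had 0.523 and 0.834. These 3 elements were selected through nerd-1+T alone. AT4TE42070 rose by 2.24 (adjusted p = 0.0035, limma), from 4.54 and 6.26 FPKM to 20.7 and 40.1, with 3.70 and 4.58 in nerd-1.

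In nerd-1 against nerd-1+T, 568 elements were not set apart, of which 103 (18.1%) were lower and 64 (11.3%) higher in nerd-1, against 14.0% lower and 24.0% higher over all features. The median was -0.20, against 0.06 over all features. This comparison depended on the nerd-1+T library used. Without nerd-1+T replicate 1, 211 elements were lower and 89 higher in nerd-1 (37.1% and 15.7%, against 23.5% and 32.0% of all features), with a median of -0.35. Without nerd-1+T replicate 2, 103 were lower and 100 higher (18.1% and 17.6%, against 14.3% and 25.5% of all features), with a median of -0.02. Leaving out nerd-1 replicate 1 or 2 gave 50 and 41 lower elements (8.80% and 7.22%, against 3.50% and 3.48% of all features) and 28 and 33 higher elements (4.93% and 5.81%, against 5.46% and 5.04%). When each library was scaled to the same FPKM total, 27.8% of the called elements were higher in nerd-1, against 38.3% with FPKM as deposited. That scaling turned the order over all features to 28.0% lower and 11.8% higher, with 135 elements (23.8%) lower and 52 (9.15%) higher, so that elements were then called lower less often than all features.

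Elements lower in nerd-1 than in nerd-1+T included AT4TE29090, AT5TE48720, AT2TE54200, AT2TE28180 and AT4TE10810, whose values are given above. AT1TE06655 had 11.1 and 101 FPKM in nerd-1, against 588 and 245 in nerd-1+T and 216 and 211 in WT, and lies near the threshold (adjusted p = 0.046, limma). AT1TE24975 had 0 in both nerd-1 libraries, 20.9 and 8.20 in nerd-1+T and 0 and 9.91 in WT. It would not have been selected without nerd-1+T, so that no p is given. AT1TE95530, at 0 in WT and nerd-1+T like the 4 elements above, had 5.51 and 11.1 FPKM in nerd-1 and was likewise selected through nerd-1 alone. Other elements higher in nerd-1 than in nerd-1+T included AT1TE02275, AT1TE71780 and AT1TE71790. AT5TE91490 had 108 and 103 FPKM in nerd-1, with 94.1 and 72.9 in WT but 23.1 and 33.0 in nerd-1+T, and was higher in nerd-1 than in nerd-1+T by 1.90 (SE 0.19, adjusted p = 0.0027, limma).

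The files give no positions for elements, but features that Cufflinks handled together stand next to each other in all 6 files, although the order of the files differs otherwise. Among 3139 gene pairs in neighbouring rows of all files with an expressed gene, 56.1% overlap in the TAIR10.1 annotation and 82.5% lie within 10000 bases. A gene in the same run of rows was therefore taken to be near an element, and need not contain it. This check was not made for elements, for longer runs or for features without expression. Of the 674 expressed elements, 571 (84.7%) stood in a run with at least 1 gene, against 9665 of the other 30426 elements (31.8%). The other elements did not pass the expression threshold, and the use of runs was not checked for them. The contrast therefore cannot show whether expressed elements lie nearer to genes. A single gene was found for 462 elements, several genes for 109 and none for 103. In 39 runs more than 1 expressed element was found, 91 elements in all, and elements of the same run are not independent observations. Where an element overlaps a gene, Cufflinks divides the reads between both by likelihood.

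Some elements moved with the gene of their run and others did not. Over 460 elements with a single gene above 0, the ratio of element to gene FPKM had a median of 0.877 and quartiles of 0.240 and 2.899, and 50 elements were at least 10 times as high as their gene. Of 372 such pairs tested in nerd-1 against WT, 169 elements were lower. The gene was lower as well in 83 pairs, higher in 20 and not past the threshold in 66, while 43.5% of all 372 genes were lower. The 169 elements had a median of -1.20 and their genes a median of -0.18. Of the 33 elements that were higher in nerd-1, 18 had a gene that was higher, 8 a gene that was lower and 7 a gene not past the threshold, while 20.2% of all 372 genes were higher. In nerd-1+T against WT, 123 elements were lower, of which 86 had a gene that was lower too, while 43.4% of all 373 genes were lower, with medians of -0.88 and -0.43. As a description over pairs that share libraries and reads, Pearson's r between the differences of element and gene was 0.23 in nerd-1 against WT (n = 372), 0.50 in nerd-1+T against WT (n = 373) and 0.24 in nerd-1 against nerd-1+T (n = 367). Over the 238 pairs with the element at 1 FPKM or more in all 6 libraries it was 0.32, 0.71 and 0.34.

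**Figure D5:**
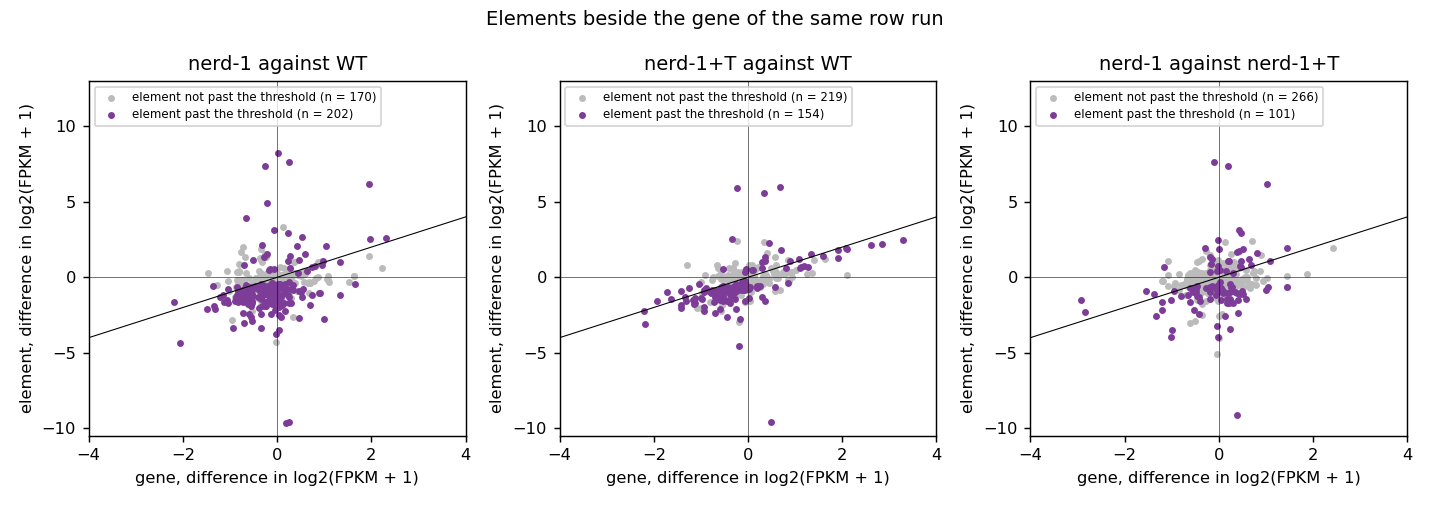
Each point is an expressed element with a single gene in its run of rows, with the difference in log2(FPKM + 1) of the gene on the horizontal axis and of the element on the vertical axis, and the line of equal differences. Elements scatter more widely than genes, and purple points below 0 with genes near 0 are elements that were lower while the gene changed little.

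Individual loci show each kind of relation; unless named above, they were chosen after their values were seen. Element and gene rose together in several cases. AT2G41640, which encodes a glycosyltransferase of family 61, stood in a run with AT2TE78320 and rose in nerd-1 from 4.25 and 4.28 to 24.8 and 25.4 FPKM, by 2.31 (adjusted p = 0.00010, limma). AT5G25240, annotated as a stress-induced protein, rose with AT5TE31645, from 10.8 and 9.32 to 44.3 and 40.1 FPKM. *WRKY33*, a transcription factor of plant defence, had 40.8 and 45.6 FPKM in WT against 121 and 126 in nerd-1, with 23.6 and 27.4 in nerd-1+T, and AT2TE72160 of the same run had 134 and 159, 378 and 332, and 104 and 208 FPKM. Both were higher in nerd-1 than in WT, by 1.498 for the gene (adjusted p = 0.00040, limma) and 1.27 for the element (adjusted p = 0.021, limma). *PATL1*, which encodes the membrane trafficking protein patellin 1, rose in nerd-1 by 0.28 only, from 420 and 416 to 510 and 506 FPKM, while AT1TE88825 of its run rose by 1.38, from 241 and 225 to 622 and 598 FPKM.

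Other pairs fell together or parted. AT5G35480 fell with AT5TE48720 by 2.07, from 58.1 and 44.7 FPKM in WT to 11.5 and 11.3 in nerd-1, with 25.5 and 22.9 in nerd-1+T (adjusted p = 0.00044 for nerd-1 against WT, limma). AT4TE34430 stood in a run with the microRNA precursor genes *MIR850* and *MIR863* and with the noncoding RNA gene AT4G13495, which overlaps both on chromosome 4 (7842967 to 7846774, TAIR10.1). The element had 68.7 and 67.5 FPKM in WT against 9.04 and 10.6 in nerd-1, with 25.9 and 34.4 in nerd-1+T, a fall by 2.68 in nerd-1 (SE 0.14, adjusted p = 0.00029, limma). *MIR863* fell by 3.18, from 12.1 and 12.8 FPKM to 0.392 and 0.595, *MIR850* by 1.35 and AT4G13495 by 1.11, from 830 and 823 to 378 and 388 FPKM. In contrast, AT2G17880, a DnaJ-domain chaperone gene in the run of AT2TE32080, rose in nerd-1 by 0.99, from 23.9 and 24.8 to 49.7 and 48.6 FPKM, while the element fell. *SPA2*, a regulator of light signalling in the run of AT4TE29090, had 12.3 and 12.01 FPKM in WT against 13.8 and 14.2 in nerd-1, where the element was at 0. *ESP4*, which encodes a symplekin-like factor of RNA 3′ end processing, stood with AT5TE00550 and had 12.3 and 12.7 FPKM in WT against 10.4 and 10.14 in nerd-1. *ECT2*, which encodes a reader of the RNA modification m6A, stood with AT3TE18490 and fell in nerd-1 by 0.33, from 180 and 182 to 143 and 144 FPKM.

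The run with the most expressed elements held 9 of them, from AT1TE71765 to AT1TE71830, with AT1G58602 and the pseudogene AT1G58561. AT1G58602 encodes a disease resistance protein with NB-ARC and leucine-rich repeat domains and lies on chromosome 1 (21746354 to 21766048, TAIR10.1), and AT1G58561 lies within it (21748675 to 21753246). AT1G58602 had 68.0 and 66.8 FPKM in WT against 31.7 and 31.7 in nerd-1, with 45.2 and 47.3 in nerd-1+T. It fell in nerd-1 by 1.06 and in nerd-1+T by 0.53 (SE 0.05, adjusted p = 0.00018 and 0.00076, limma). The elements of this run did not follow it uniformly. AT1TE71765 fell in nerd-1 by 2.79, from 73.9 and 54.3 to 11.1 and 6.16 FPKM, with 18.1 and 30.9 in nerd-1+T, and AT1TE71770 by 0.82, from 7.80 and 7.08 to 4.13 and 3.45 FPKM. AT1TE71790 rose in nerd-1 by 2.47 (SE 0.20, adjusted p = 0.00088, limma), from 5.99 and 3.68 to 30.9 and 30.3 FPKM, and fell in nerd-1+T to 1.41 and 1.87 FPKM, by 1.12. The pseudogene AT1G58561 had at most 8.3e-06 FPKM in WT and in nerd-1+T and 1.00 and 1.24 FPKM in nerd-1. AT1TE71780 had 19.0 and 0 FPKM in WT, 29.5 and 70.6 in nerd-1 and 0 in both nerd-1+T libraries. AT1TE71775, AT1TE71805 and AT1TE71810 fell by 0.65, 1.11 and 0.80 in nerd-1+T against WT, and did not pass the test in nerd-1 against WT.

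One element was linked by its run to the gene that the construct expresses. AT2TE29070 stood in a run with *NERD* and had 16.2 and 16.8 FPKM in WT against 22.7 and 21.3 in nerd-1, with 53.4 and 77.2 in nerd-1+T. It was higher in nerd-1+T than in WT by 1.90 (SE 0.17, adjusted p = 0.00081, limma), beside a rise of *NERD* by 2.11. In nerd-1 against WT, *NERD* fell by 0.81, while the element differed by 0.39 (adjusted p = 0.095, limma). Whether the construct contains the element was not determined. Reads from the construct and from the chromosomal gene cannot be told apart in these values.

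Elements known for their mobility were not among those expressed. The 8 copies of the heat-activated Copia element *ONSEN* (*ATCOPIA78*) did not exceed 0.0399 FPKM in any library, a value reached by AT5TE15240 in nerd-1 replicate 2. The Copia element *EVADE* (AT5TE20395), which moves in plants that have lost DNA methylation, was listed at 0 in all 6 libraries, and its relative AT1TE41575 reached 0.000026 FPKM. AT5TE50260 and AT3TE71565, which the study examined as parts of gene-element transcripts, stayed below 1 FPKM in all libraries and are therefore not among the 674 elements. The study reported chimeric RNA with AT5TE50260 in nerd-1 from sequencing reads and RT-PCR. Its FPKM were 8.8e-07 and 0.0272 in WT against 2.5e-08 and 0.0210 in nerd-1. AT3TE71565 had 0.222 and 0.207 FPKM in WT, 0.287 and 0.491 in nerd-1, then 0.157 and 0.114 in nerd-1+T. How such low values relate to those transcripts was not tested.

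Genes that silence elements, or that counter silencing, were compared in the same fit. Of 34 such genes, all expressed, 13 (38.2%) were lower and 1 (2.94%) was higher in nerd-1 against WT, beside 36.3% and 19.4% of all features. In nerd-1+T against WT, 17 of 34 were lower and 2 (5.88%) higher, beside 39.8% and 13.2%, and in nerd-1 against nerd-1+T, 1 (2.94%) was lower and 9 (26.5%) higher, beside 14.0% and 24.0%. The shares of lower calls in nerd-1 against WT and of higher calls in nerd-1 against nerd-1+T were thus near those of all features. The medians were -0.16, -0.22 and 0.08, close to the -0.11, -0.17 and 0.06 of all features, and differences ranged from -0.76 to 0.55. Among genes of DNA methylation, *MET1*, the maintenance methyltransferase of CG sites, fell in nerd-1 by 0.35 (adjusted p = 0.0053, limma), from 12.2 and 11.9 to 9.61 and 8.95 FPKM, and the chromatin remodeller gene *DDM1* fell by 0.31, from 6.99 and 6.74 to 5.42 and 5.22 FPKM. *ROS1*, a DNA demethylase, fell by 0.52 in nerd-1 and by 0.74 in the complemented line (adjusted p = 0.0014 and 0.00039, limma), from 23.3 and 23.3 FPKM in WT to 16.0 and 15.8 and to 13.1 and 14.0. *IBM1*, a histone H3K9 demethylase that protects genes from methylation, fell by 0.46 and 0.27. Among genes of small RNA pathways, *DCL2*, a Dicer enzyme, fell by 0.43 in nerd-1, and *RDM1* and *DMS3*, parts of the complex that recruits RNA polymerase V, fell in nerd-1+T by 0.48 and 0.52 and had -0.06 (*DMS3*) and 0.05 (*RDM1*) in nerd-1, where they did not pass the test. The histone deacetylase gene *HDA6* rose in nerd-1 by 0.55 (adjusted p = 0.0026, limma), from 9.56 and 8.84 to 13.8 and 14.0 FPKM. When libraries were scaled to the same FPKM total, 22 of these 34 genes passed the threshold in nerd-1 against WT. Of all features, 50.9% were then lower and 13.1% higher. The number of these genes past the threshold moved with the library left out in all 3 comparisons, and so did the shares of all features.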

How the data were processed

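Polyadenylated RNA of 6 libraries was measured, and analysis started from the deposited FPKM. The authors removed chloroplast, mitochondrial and ribosomal reads with Bowtie 2 v2.3.4, used TopHat2 v2.0.7 for mapping single reads of 125 bases (TAIR10) and estimated FPKM per library with Cufflinks v2.2.1. The libraries were stranded; whether Cufflinks used the strand is not given in the sources used here. In each file 4 entries without an identifier were left out. Elements and features were retained at 1 FPKM or more in at least 2 libraries. Genotypes were compared on log2(FPKM + 1) in 1 fit over 6 libraries with limma v3.58.1 in R v4.3.3 (moderated variances with a trend, two-sided), with Benjamini-Hochberg adjustment over 20249 features and a threshold of 0.05. A log2 difference on this scale understates changes of low values. An element was set apart in a genotype when 1 library had exactly 0 and the other at least 1 FPKM. Named elements were the 10 with the highest means, up to 8 rises and 8 falls per comparison whose libraries did not overlap, the 10 set-apart elements with the highest values, and elements and genes of short lists. The fit was checked on simulated data. Gene positions are from the RefSeq annotation of TAIR10.1. The selection and the lists were made with earlier results of these data known. Alternatives were another pseudocount, other filters and scalings, a replicate block, fits without a trend or with 4 libraries, and each library left out in turn.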

Additional observations from a re-analysis of the deposited data

How the results depend on the processing

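No difference of a named element changed sign under the alternatives run. These elements were chosen past the threshold with libraries that did not overlap. A change of sign was thus nearly precluded by the choice, and its absence is no check. The median of all features in nerd-1 against nerd-1+T did change sign, as given below. Of 1141 recomputed differences of named elements, 1032 kept their side of the threshold and 109 did not. With at least 1 FPKM in every library required, and with the 340 elements of at least 1 FPKM in all 6 libraries (a choice made after seeing the data), higher elements numbered 34 and 31 in nerd-1 against WT, 20 and 20 in nerd-1+T against WT, and 34 and 32 in nerd-1 against nerd-1+T, where lower elements numbered 62 and 55. In the first of these fits, 10%, 5.88% and 10% of elements were higher, against 20.1%, 13.8% and 25.8% of all features. Lower calls in nerd-1 against nerd-1+T were 18.2% against 15.1%. Genes of the silencing list past the threshold were 9 and 6 with no filter on low values in nerd-1 against WT and in nerd-1 against nerd-1+T, 22 with equal FPKM totals in nerd-1 against WT, 11 with median scaling in nerd-1+T against WT, and 6 with only 4 libraries in nerd-1 against nerd-1+T. In the same order, higher and lower calls over all features were 5.64% and 9.54%, 6.08% and 3.52%, 13.1% and 50.9%, 19.8% and 20.7%, and 15.4% and 9.07%. With a high value of at least 5 FPKM, 66 elements were set apart. The cause of these shifts was not tested, other than that fewer features or libraries entered some fits.

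With each library left out in turn, higher and lower elements ranged from 41 to 90 and 136 to 294 in nerd-1 against WT, 30 to 58 and 87 to 254 in nerd-1+T against WT, and 28 to 100 and 41 to 211 in nerd-1 against nerd-1+T, and silencing genes past the threshold from 5 to 17, 8 to 23 and 1 to 13. Leaving out 1 library assumes that a lone library varies like the other groups.

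Equal FPKM totals moved the median of all features from -0.11 to -0.24 in nerd-1 against WT and from 0.06 to -0.09 in nerd-1 against nerd-1+T, and median scaling moved it from -0.17 to -0.03 in nerd-1+T against WT. Same-numbered replicates did not deviate together (correlations of 0.049, 0.088 and -0.00071), so that numbers do not pair the samples. With the replicate block, higher and lower elements numbered 68 and 255, 48 and 190, and 65 and 111 in the 3 comparisons, and silencing genes 11, 18 and 9. As shares, the elements had 12% and 45%, 8.48% and 33.6%, and 11.4% and 19.5%. All features had 18.5% and 34.4%, 12.7% and 37.6%, and 20.9% and 12.4% in this fit. An alternative restricted to elements within genes was not run, as element positions were not used here. Read numbers behind FPKM are unknown, which limits what can be said of elements with few fragments.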
